A study of Drosophila melanogaster with 6 samples.

Results

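The 10 genes described here carry much of what is known of learning and cyclic AMP (cAMP) signalling in the fly: dnc, rut, amn, Pka-C1, Pka-R1, Pka-R2, CrebB, orb2, for and CaMKII. They were chosen by symbol, by a rule that uses no measured value but was written with earlier results of these data known, and all 10 were listed among the 16725 genes of the brain count table. All groups came from pools of 15 dissected brains of 5-day-old adult flies. The labels give no genotype, sex or treatment, and the methods name Canton-S stocks. Extracted RNA was divided by the authors between polyA enrichment, which selects polyadenylated transcripts, and depletion of rRNA with RNase H guided by custom DNA probes. There were 2 libraries of each kind, described as biological replicates in the methods and numbered 1 and 2 in the labels, and more total RNA went into a library for depletion than for enrichment. In such pools fewer cells of a type and less RNA per cell cannot be told apart.

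In the fly, odour and reward or punishment meet in the Kenyon cells of the mushroom body, where calcium and a receptor signal jointly raise cAMP. cAMP releases the catalytic subunits of protein kinase A from their regulatory subunits, the kinase alters ion channels and synapses for short-term memory, and CREB-dependent transcription and local translation carry long-term memory. Mutants in dnc and rut were isolated as poor learners and opened this pathway to genetics.

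Total counts ran from 11838449 (polyA-enriched 2) to 14295047 (rRNA-depleted 1), with 12142737 for rRNA-depleted 2 and 13821678 for polyA-enriched 1. Across all genes the libraries with the same number deviated together from the means of their labels (Pearson's r = 0.902 over 9737 genes, which are not independent replicates), so each library is named by its label and number. More genes were called between the numbers (5473) than between the labels in the same fit (2952), and the column names were taken as deposited, with no independent check, so each label difference is one between libraries so labelled. All 5 neuron markers (elav, nSyb, brp, Syt1 and cpx) had counts in every library, with a summed level between 7358 and 10019 CPM, which are counts scaled to library size, and the 5 glial markers summed to between 3095 and 5291 CPM. Markers of tissue outside the brain proper were also present and moved with the label. The 8 photoreceptor markers summed to 382.0 and 270.7 CPM after depletion (numbers 1 and 2), against 3006 and 2046 CPM after polyA enrichment, and all 8 were lower with the replicate number as a block. The 6 fat body markers summed to 1185 and 2543 against 14719 and 13834 CPM, and the 6 muscle markers to 4.25 and 11.7 against 164.1 and 161.0 CPM. The part of these tissues in the members' results was not tested.

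**Figure D1:**
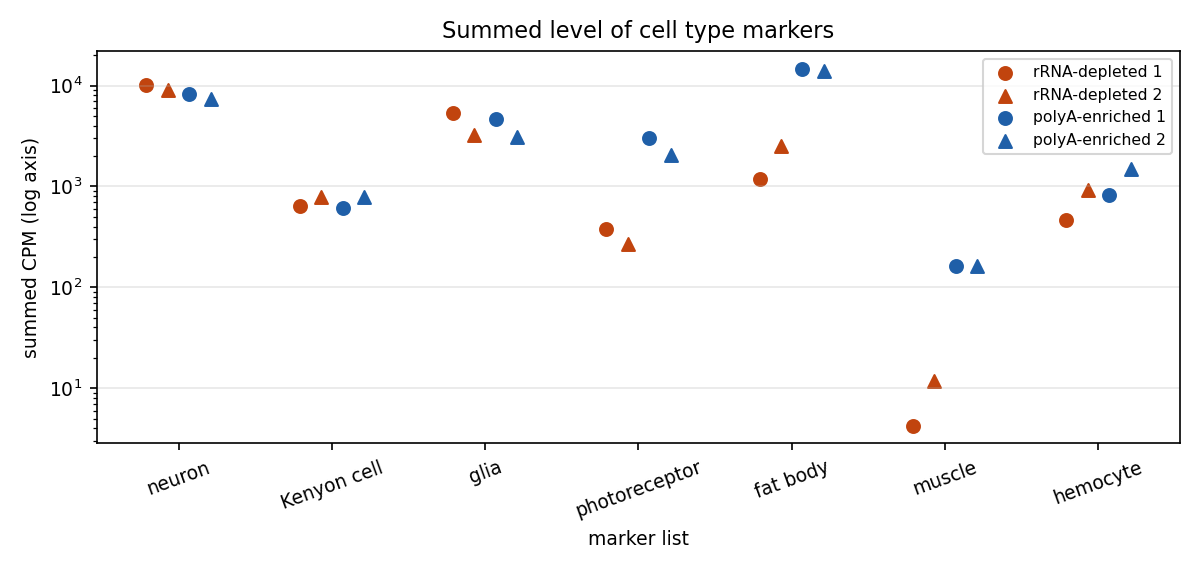
Summed CPM (log axis) of 7 marker lists in the 4 brain libraries, with rRNA-depleted in orange, polyA-enriched in blue, circles for number 1 and triangles for number 2. Photoreceptor, fat body and muscle markers were 7.74-fold, 7.66-fold and 20.4-fold higher in the libraries labelled polyA-enriched. The 4 sums ran from 7358 to 10019 CPM for the neuron markers and from 608.1 to 782.7 CPM for the Kenyon cell markers. In the means, the neuron sum was 1.23-fold higher in the libraries labelled rRNA-depleted. Several single markers ranged more widely. Between the numbers, 2 of 5 neuron markers were called higher and 3 lower, and 2 of 5 Kenyon cell markers higher (edgeR). Of all genes, 31.5% were called higher and 24.7% lower. The glial sum was 1.57-fold higher in the libraries numbered 1, with 4 of 5 markers called lower in those numbered 2 and 1 higher. The photoreceptor sum was 1.46-fold higher in the libraries numbered 1, and the hemocyte sum 1.89-fold higher in those numbered 2.

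Levels differed widely among the members. CPM were scaled by edgeR's TMM factors and divided by the length of the union of annotated exons, since levels of different genes can be compared only per length. CaMKII, the calcium and calmodulin-dependent protein kinase of the synapse, was the most abundant, with a mean of 224.9 ± 92.5 CPM per kb (SD, n = 4 libraries). The 3 subunits of protein kinase A followed in the order Pka-C1 at 136.4 ± 13.4, Pka-R2 at 118.7 ± 17.3 and Pka-R1 at 80.2 ± 11.5 CPM per kb. The adenylyl cyclase rut was at 59.7 ± 20.6, the translational regulator orb2 at 49.7 ± 12.1, the phosphodiesterase dnc at 42.7 ± 1.77 and the transcription factor CrebB at 27.9 ± 3.11 CPM per kb. The cGMP-dependent protein kinase for was lower, at 11.5 ± 6.03 CPM per kb, and the neuropeptide gene amn was lowest, at 0.123 ± 0.032 CPM per kb. Among 9649 genes with a length and enough counts, CaMKII lay above 97.8%, Pka-C1 above 96.0%, Pka-R2 above 95.0%, Pka-R1 above 91.6% and for above 42.1%.

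Of the 9 neighbouring pairs in this order, 4 did not overlap over the 4 libraries, namely Pka-R2 and Pka-R1, dnc and CrebB, CrebB and for, and for and amn. The ranges of CaMKII and Pka-C1, Pka-C1 and Pka-R2, Pka-R1 and rut, rut and orb2, and orb2 and dnc overlapped, although Pka-C1 was above Pka-R2 in each of the 4 libraries on this scale and in 2 of them per kb of the longest transcript. Per kb of the longest transcript, Pka-R2 and Pka-R1 overlapped as well. The order of rut, orb2 and dnc also rests on the length used. With the longest transcript in place of all exons, dnc moved to 64.0 CPM per kb and stood above rut at 62.0 and orb2 at 52.6, because the 17 transcripts of dnc have 16683 bp of exon in all and 11128 bp in the longest.

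**Figure D2:**
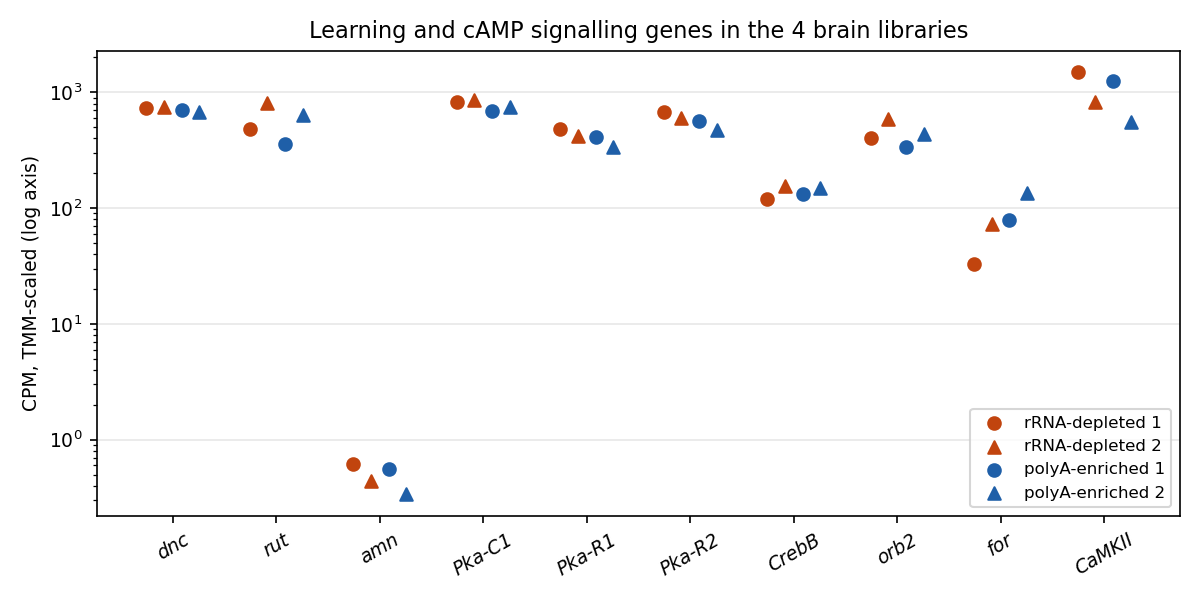
CPM scaled by TMM (log axis) of the 10 genes in the 4 brain libraries, not divided by length, with rRNA-depleted in orange, polyA-enriched in blue, circles for number 1 and triangles for number 2. The 4 points of dnc lie almost on each other between 673.8 and 741.8 CPM, those of for spread from 32.7 to 134.3 CPM, and amn stays under 1 CPM.

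The study compared the library types to ask what rRNA depletion captures that polyA enrichment does not. For the members, the answer depended on whether the shared number was taken into account. A gene was called where its adjusted p-value from edgeR, taken over all genes tested, was under 0.05. Without the number, 0 of the 9 members tested were called, beside 0.0% of all 9737 genes. Before adjustment, 0 members and 1103 genes (11.3%) had a p-value under 0.05, and DESeq2 called 0 members and 551 genes (5.66%). Since the methods describe a split of the RNA between the library types, a second fit took the replicate number as a block. That libraries with the same number share an extraction is an assumption, which the labels do not state and which was not tested. Within number 1, the muscle markers summed to 4.25 CPM after depletion against 164.1 CPM after polyA enrichment. The photoreceptor markers summed to 382.0 against 3006 CPM, and the neuron markers to 10019 against 8174 CPM. Whether the split of a shared RNA gives such differences was not tested. With the block, 6 of the 9 members were called, against 30.3% of all genes. The 5 higher in the libraries labelled rRNA-depleted were rut, Pka-R1, Pka-R2, orb2 and CaMKII, where 11.1% of all genes were called higher, and for was lower, where 19.2% were called lower. DESeq2 with the block called those 6 and Pka-C1, 7 of 9, against 19.3% of all genes. With a log2 fold change beyond 1 as a further condition, the gene for was the single member called, where 12.1% of all genes were called lower.

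The differences of the 5 higher genes were small, between 0.28 and 0.42 on the log2 scale with the block. The median over the 9 members was 0.28, against 0.04 over all genes and 0.26 over the 5 neuron markers. In CPM, both libraries labelled rRNA-depleted lay above both labelled polyA-enriched for 4 members (dnc, Pka-C1, Pka-R1 and Pka-R2), where 11.8% of all genes did so, and both lay below for the gene for, where 20.6% did.

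**Figure D3:**
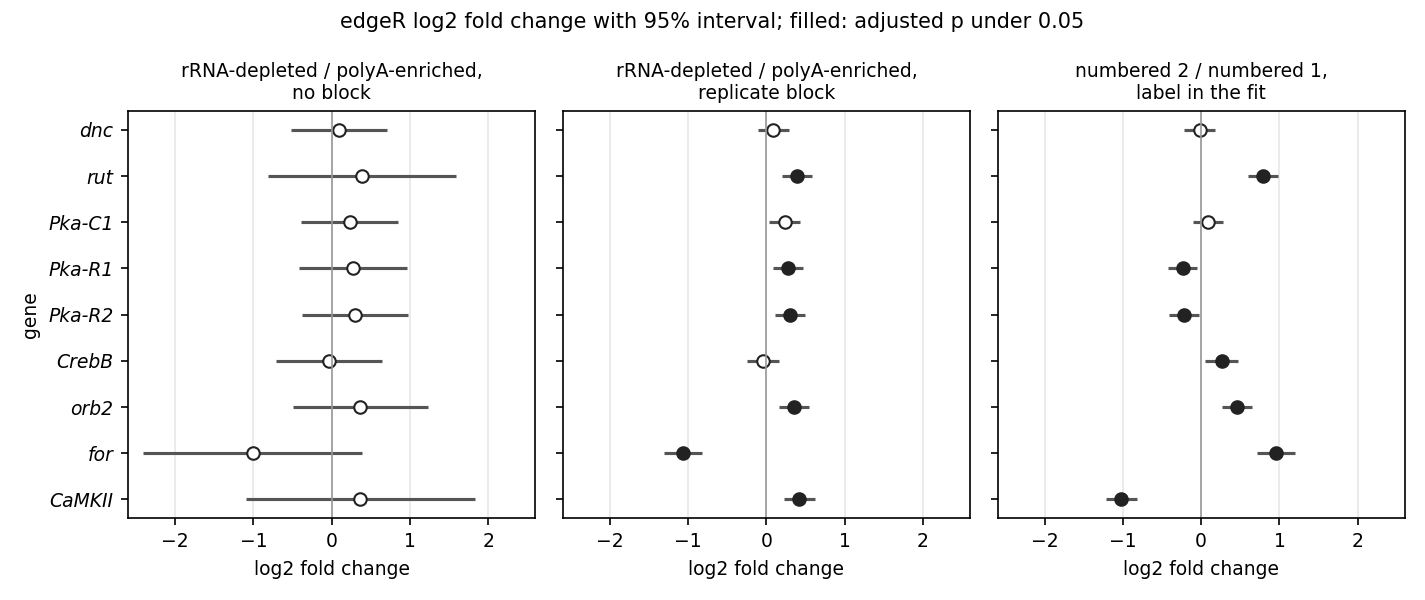
Log2 fold changes from edgeR with 95% intervals (horizontal lines) for the 9 members tested, between the labels without and with the replicate block and between the numbers with the label in the fit. Filled points passed an adjusted p-value of 0.05. Every interval of the left panel covers 0, for stands at -1.06 in the middle panel, and CaMKII and for lie on opposite sides at -1.02 and 0.96 in the right panel.

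The pair of enzymes that make and break cAMP behaved differently. The gene dnc encodes the cAMP phosphodiesterase related to mammalian PDE4. It lies on chromosome X (plus strand, dm6) between 3176440 and 3343767, a span of 167328 bp of which exons take 9.97%, and has 9 other annotated genes within its span, none of which shares exon sequence with it. It had 727.5 and 741.8 CPM in the libraries labelled rRNA-depleted 1 and 2, against 707.3 and 673.8 CPM in polyA-enriched 1 and 2. This was the steadiest member, with its highest library 1.10-fold above its lowest. Its log2 fold change between the labels was 0.09 with the block (standard error 0.10, 95% interval -0.10 to 0.28, adjusted p = 0.54, edgeR). Between the numbers it was -0.02, with an interval of -0.21 to 0.17.

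The gene rut encodes an adenylyl cyclase that responds to calcium and calmodulin and is held to detect the coincidence of odour and reinforcement. It lies on chromosome X from 14787478 to 14826073 on the minus strand, and its 9618 bp of exon share 420 bp with the antisense lncRNA CR45522, which had at most 1 count in a library. It had 485.1 and 815.9 CPM in the libraries labelled rRNA-depleted 1 and 2, against 357.6 and 639.1 CPM in polyA-enriched 1 and 2. The libraries numbered 2 were both above those numbered 1, and the labels overlapped. The log2 fold change between the labels was 0.38 (standard error 0.44, adjusted p = 1.00, edgeR) without the block and 0.40 (standard error 0.10, adjusted p = 0.00070, edgeR) with it. Without the library labelled rRNA-depleted 2 the unblocked value turned to -0.05. Within a library, the ratio of dnc to rut per kb of exon was 0.864, 0.524, 1.14 and 0.608 in the same order of libraries, which was lower in both numbered 2. The log2 ratio was lower in the rRNA-depleted library of each pair, with differences of -0.40 for number 1 and -0.21 for number 2 and a mean of -0.31. An exact two-sided permutation test that ignores the pairs gave p = 0.67, where it can go no lower than 0.33, and one over 2 pairs can go no lower than 0.50.

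The gene amn encodes a neuropeptide precursor, made mainly by a very small number of neurons that innervate the mushroom body, and is needed for the stability of memory. It is a gene of a single exon on chromosome X, from 19886108 to 19890060 on the minus strand, of which 3.54% lies under an exon of Hers on the opposite strand. The rRNA-depleted libraries held 9 (number 1) and 5 (number 2) of its counts, and the polyA-enriched libraries 8 and 4. As shares of the library totals these were 0.630 (95% Wilson interval 0.331 to 1.20), 0.412 (0.176 to 0.964), 0.579 (0.293 to 1.14) and 0.338 (0.131 to 0.869) CPM, where the intervals cover counting error only. All 4 intervals overlap, which is not a test of a difference between libraries. As amn did not reach 10 counts in any library, while Hers had between 3568 and 7947, amn was left out of the main tests. Without a count minimum its log2 fold change was 0.29 between the labels (adjusted p = 1.00, edgeR) and -0.73 between the numbers (adjusted p = 0.55, edgeR).

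The 3 protein kinase A genes kept close to each other between the labels. Pka-C1 encodes the main catalytic subunit and lies on chromosome 2L from 9682315 to 9699297 (minus strand). Its level was 825.2 and 860.5 CPM in the libraries labelled rRNA-depleted 1 and 2, against 690.7 and 746.2 CPM in polyA-enriched 1 and 2, so that the labels did not overlap. The log2 fold change was 0.23 (standard error 0.10, 95% interval 0.04 to 0.43, adjusted p = 0.063, edgeR with the block), which missed the threshold, whereas DESeq2 with the block gave 0.30 and an adjusted p of 0.035. Between the numbers it was 0.09, with an interval of -0.11 to 0.28.

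Pka-R1 and Pka-R2 encode the type I and type II regulatory subunits, which hold the catalytic subunit inactive until cAMP binds them. Pka-R1 lies on chromosome 3L from 20816118 to 20836048 on the plus strand, and Pka-R2 (minus strand) spans positions 9993890 to 10026042 of chromosome 2R. Pka-R1 had 485.1 and 421.7 CPM after depletion (numbers 1 and 2) and 410.0 and 340.3 CPM after enrichment. Pka-R2 had 672.0 and 598.1 against 565.7 and 469.5 CPM. Both were higher in the libraries labelled rRNA-depleted, and within each label both were lower in the library numbered 2. With the block, the log2 fold change between the labels was 0.28 for Pka-R1 (standard error 0.09, adjusted p = 0.019) and 0.30 for Pka-R2 (standard error 0.10, adjusted p = 0.012, edgeR). Between the numbers they differed by -0.24 (adjusted p = 0.029) and -0.22 (adjusted p = 0.047, edgeR), calls that were lost at a threshold of 0.01 and with either other count minimum, where the adjusted p-values lay between 0.054 and 0.12.

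The ratio of Pka-R1 to Pka-R2, which does not depend on scaling between libraries, stayed almost constant. Per kb of exon it was 0.678, 0.662, 0.681 and 0.681 in the order of libraries used above. Over the libraries the ratio ranged 1.03-fold, the narrowest range of the 36 pairs of tested members, while each gene alone ranged 1.43-fold. The next narrowest pair was dnc and Pka-C1, with a range of 1.19-fold, and the widest was for and CaMKII, with 11.1-fold. Against the catalytic subunit, Pka-R1 stood at 0.651, 0.543, 0.658 and 0.505 and Pka-R2 at 0.960, 0.820, 0.966 and 0.742 in the same order, so both ratios were lower in both libraries numbered 2. The labels differed by a log2 ratio of 0.04 for Pka-R1 to Pka-C1 and 0.07 for Pka-R2 to Pka-C1, and within the pairs by -0.01 and 0.10 for the former and -0.01 and 0.14 for the latter (exact two-sided permutation tests that ignore the pairs, p = 1.00 for both). The numbers differed by -0.32 and -0.30 without overlap, at the smallest p of 0.33 that this design allows in that exact permutation test.

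**Figure D4:**
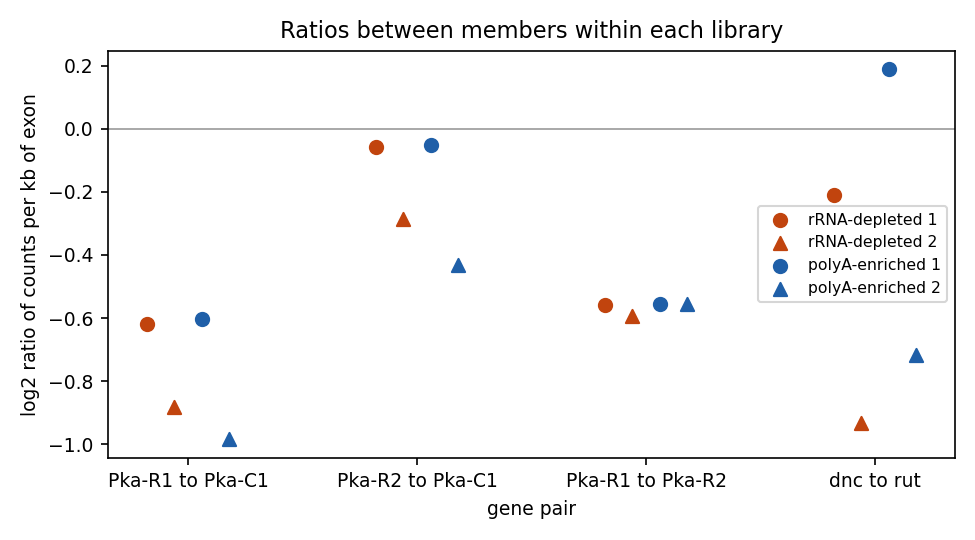
Log2 ratio of counts per kb of exon for 4 gene pairs in each brain library, with rRNA-depleted in orange, polyA-enriched in blue, circles for number 1 and triangles for number 2. The ratio of Pka-R1 to Pka-R2 stays between -0.59 and -0.55, while that of dnc to rut runs from -0.93 to 0.19 and is lower in both triangles.

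Among the members that act on gene expression, orb2 differed between the libraries more than CrebB. CrebB encodes the fly CREB, a transcription factor activated by protein kinase A with activating and repressing isoforms, and lies on chromosome X from 18366357 to 18377864 on the plus strand. It had 120.8 and 154.9 CPM in the libraries labelled rRNA-depleted 1 and 2, against 133.3 and 149.3 CPM in polyA-enriched 1 and 2. The labels overlapped. The log2 fold change between them was -0.04 with the block (standard error 0.10, 95% interval -0.25 to 0.16, adjusted p = 0.80, edgeR), and the unblocked value, also -0.04, turned to 0.03 with DESeq2's size factors. Of its 4995 bp of exon, 344 bp lie opposite an exon of por, which had between 156 and 351 counts. Counts per gene do not separate the activating from the repressing isoforms among its 10 annotated transcripts.

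The gene orb2 encodes a CPEB protein that binds mRNAs at synapses and whose self-assembly is needed for long-term memory. It lies on chromosome 3L from 8937100 to 8954463 on the minus strand, with a longest annotated 3′ UTR of 5791 bp. It had 406.8 and 589.7 CPM in the libraries labelled rRNA-depleted 1 and 2, against 334.9 and 437.6 CPM in polyA-enriched 1 and 2. Within each pair the rRNA-depleted library was above, and within each label the library numbered 2 was. The log2 fold change between the labels was 0.36 with the block (standard error 0.10, adjusted p = 0.0022, edgeR). Between the numbers it was 0.46 (standard error 0.10, adjusted p = 3.1e-05, edgeR), a call that was lost without a count minimum (0.33, adjusted p = 0.091, edgeR). Of its exon sequence, 14.8% is shared with CG43783 on the same strand, a gene with 1032, 1332, 850 and 1043 counts in the order of libraries above, and how reads on the shared part were assigned is not given in the sources used here.

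The gene for, called foraging, encodes a cGMP-dependent protein kinase whose natural alleles set how far larvae roam for food, and is also tied to learning. It lies on chromosome 2L from 3622074 to 3656953 (minus strand). Its level was 32.7 and 73.3 CPM in the libraries labelled rRNA-depleted 1 and 2, against 78.9 and 134.3 CPM in polyA-enriched 1 and 2. Its highest library was 4.11-fold above its lowest, the widest spread of the members tested, and the labels did not overlap, although rRNA-depleted 2 came within a few CPM of polyA-enriched 1. The level was 2.01-fold higher in the mean of the libraries labelled polyA-enriched. The log2 fold change between the labels was -1.01 (standard error 0.52, adjusted p = 0.77, edgeR) without the block and -1.06 (standard error 0.12, 95% interval -1.30 to -0.83, adjusted p = 1.7e-11, edgeR) with it. Within the pairs it was -1.27 for number 1 and -0.87 for number 2, and leaving out a library moved the unblocked value between -1.72 and -0.54.

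Between the labels, the direction of for was that of the photoreceptor, fat body and muscle markers. Their medians with the block were -3.05, -3.39 and -4.62 on the log2 scale, and the 3 hemocyte markers, at -0.96, shared this direction. Between the numbers, for stood at 0.96. There the fat body and hemocyte medians were 0.54 and 0.95, while those of the photoreceptor and muscle markers were -0.64 and -0.32. The part of those tissues in the differences of for was not tested. The other cGMP-dependent kinase gene of the pathway lists, Pkg21D, was counted 69 and 105 times in rRNA-depleted 1 and 2 and 225 and 212 times in polyA-enriched 1 and 2. It stood at -1.33 with the block (standard error 0.20, adjusted p = 1.3e-07, edgeR), so both kinases of this family were lower in the libraries labelled rRNA-depleted, while the other 6 genes tested in the cGMP list, all guanylyl cyclase genes, had values above 0.

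CaMKII encodes the kinase whose autophosphorylation outlasts a calcium signal, and lies on chromosome 4 from 1035288 to 1053703 (minus strand). Its level was 1502 and 823.2 CPM in the libraries labelled rRNA-depleted 1 and 2, against 1249 and 553.8 CPM in polyA-enriched 1 and 2. Both libraries numbered 1 were above both numbered 2, by 2.00-fold in the means, and rRNA-depleted was above polyA-enriched within each pair. The log2 fold change between the labels was 0.37 (standard error 0.54, adjusted p = 1.00, edgeR) without the block and 0.42 (standard error 0.10, adjusted p = 0.00059, edgeR) with it. Without rRNA-depleted 1 or without polyA-enriched 2 the unblocked value turned to -0.14 and -0.11.

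The libraries numbered 2 and 1 were then compared with the label in the same fit, to describe how far libraries of a label differed in these genes. Of the 9 members, 7 were called, against a background in which 56.2% of all genes were called. The 4 higher in the libraries numbered 2 were rut at 0.79, for at 0.96, orb2 at 0.46 and CrebB at 0.26, where 31.5% of all genes were called higher. The call of CrebB (adjusted p = 0.027, edgeR) was lost in every alternative run, with adjusted p-values of 0.24 under DESeq2, 0.072 with DESeq2's size factors in edgeR, 0.10 with library totals, 0.56 without a count minimum and 0.065 with at least 10 counts in all 4 libraries. The 3 lower were CaMKII at -1.02, Pka-R1 at -0.24 and Pka-R2 at -0.22, where 24.7% were called lower. Standard errors lay between 0.09 and 0.12, and the adjusted p-values of rut, for and CaMKII were 1.3e-10, 3.2e-10 and 1.2e-13 (edgeR). If libraries of the same number share their RNA, these p-values hold no replication of RNA samples within a number. With a log2 fold change beyond 1 as well, CaMKII was the single member called, beside 16.0% of all genes. The calls rest on the label term. Without it, 0 of the 9 members and 1305 genes (13.4%) were called, with an adjusted p of 0.088 for CaMKII and 0.10 for rut (edgeR). In CPM, rut, CrebB and orb2 were higher in both libraries numbered 2, where 33.9% of all genes were, and CaMKII was lower in both, where 27.7% were.

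**Figure D5:**
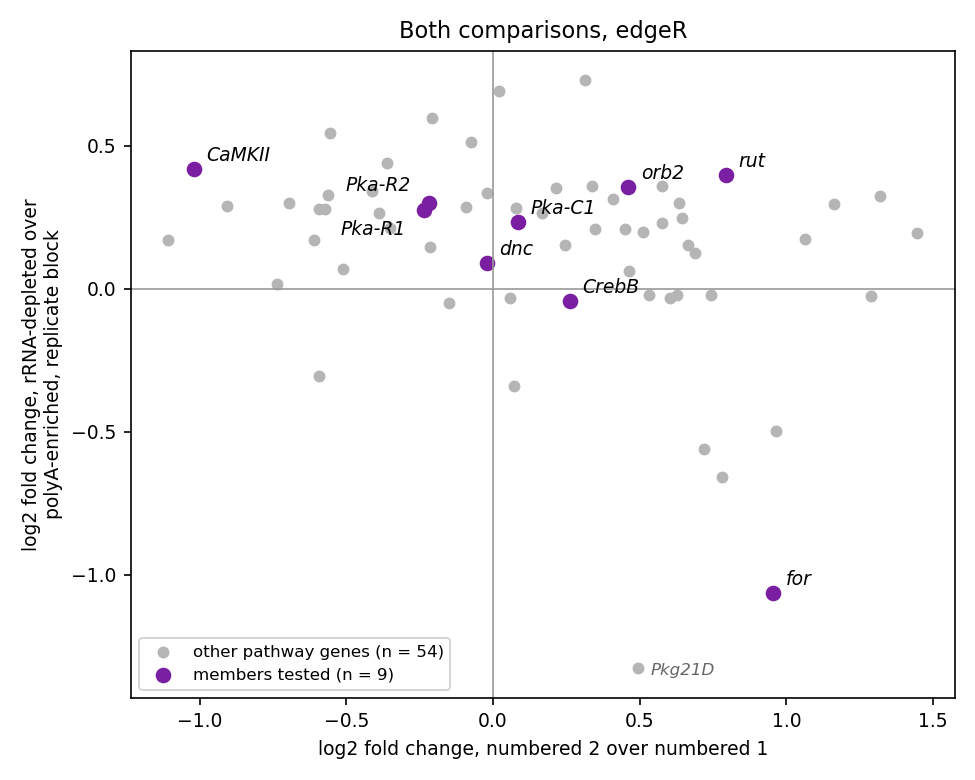
Log2 fold change between the labels with the replicate block (vertical axis) against that between the numbers (horizontal axis), from edgeR, for the 9 members tested (purple) and 54 other genes of the pathway (grey). CaMKII lies at the left and rut at the right at nearly the same height (0.42 and 0.40), and for lies low at the right, near Pkg21D.

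The members are long genes, and across all genes the difference between the numbers went with length. When genes were put into 4 groups of near-equal number by exon length, all 9 tested members fell in the longest (3572 to 71820 bp). Between the numbers, the median of the log2 fold changes was -0.42 in the shortest group, -0.15 and 0.08 in the middle groups and 0.48 in the longest. Taken from that last median, the difference was -0.02 for orb2, 0.31 for rut and 0.48 for the gene for, and it was -0.22 for CrebB, -0.39 for Pka-C1, -0.50 for dnc, -0.70 for Pka-R2, -0.72 for Pka-R1 and -1.50 for CaMKII. Between the labels with the block the medians ran only from -0.02 to 0.14 over the groups. Relative to the longest group, rut was 0.26 higher, CaMKII 0.28 higher and for lower by a log2 difference of -1.20.

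The rest of the pathway was described with lists of 60 genes, of which 58 were found in the table and 54 were tested. Between the labels 0 were called without the block, and with it 22 were higher and 5 lower, beside the 11.1% and 19.2% of all genes, with a median of 0.21. Of the 9 adenylyl cyclase and G protein genes, 5 were higher, among them Galphao, a G protein alpha subunit abundant in neurons, at 0.44, and the adenylyl cyclase Ac3 at 0.51. Of 8 genes tested for calmodulin and its targets, 4 were higher, with the calcineurin subunit gene CanB at 0.54 (standard error 0.10, adjusted p = 3.6e-06, edgeR). Among 7 translational regulators 3 were higher, and Tob, whose product binds Orb2, was the highest at 0.69 (standard error 0.10, adjusted p = 1.3e-08, edgeR). The cGMP list had 4 higher and Pkg21D lower, and 1 of 5 phosphodiesterase genes was higher, Pde6 at 0.35. The list of protein kinase A relatives, anchors and Epac had Epac higher at 0.28 and the anchor gene Akap200 lower at -0.56. Of the CREB-related list, CrebA was lower at -0.50 and the coactivators Crtc and nej, at 0.12 and 0.19, did not pass. In the list of other memory genes 4 were higher (Nf1, 14-3-3zeta, klg and dikar) and the cell adhesion genes scb and Fas2 were lower at -0.66 and -0.34.

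Between the numbers, 27 of the 54 genes were higher and 15 lower, beside 31.5% and 24.7% of all genes. The phosphodiesterase list was called higher in all 5 of its genes, led by Pde9 at 1.06, Pde11 at 0.63 and Pde8 at 0.60, whereas dnc, the phosphodiesterase among the members and not in this list, was at -0.02 and not called. All 3 genes of the CREB-related list were higher in the libraries numbered 2. These were nej, the fly CBP, at 1.45 (standard error 0.10, adjusted p = 2.8e-20, edgeR), CrebA at 0.97 and Crtc at 0.69. Of the 7 translational regulators 5 were higher, with orb at 1.32, Fmr1 at 0.64 and stau at 0.53, and me31B was lower at -0.39.

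Of the 9 genes for cyclases and G proteins, 3 were higher in the libraries numbered 2 and 4 lower, and the cyclase gene Ac3 at -0.07 and the G protein gene Galphai at -0.15 were not called. Ac13E at 1.29 and Ac78C at 0.74 were among the higher, while Ggamma1 at -0.91, Galphas at -0.70 and Gbeta13F at -0.59 were lower. In the calmodulin list 6 of 8 were lower, with Cam, the calmodulin gene, at -1.11 next to CaMKII at -1.02, CanB2 at -0.61 and CanB at -0.56, and CASK and Pp2B-14D were higher at 0.41 and 0.63. In the cGMP list 2 of the soluble cyclase genes parted, with Gycalpha99B at -0.56 and Gycbeta100B at 0.45. Others, Gyc88E at -0.02, Gyc-89Da at 0.17 and Gyc-89Db at 0.31, were not called. Pkg21D was at 0.50. Akap200 at 0.72 and rg, another anchor gene, at 0.66 were higher, and among the other memory genes dikar stood at 1.16, scb at 0.78, Adf1 at -0.74 and cer at -0.59. The genes Pka-C2, CanA1, Gyc76C and lat did not reach the count minimum, with at most 7 counts in a library and 0 for lat, and yu and Teq could not be matched to a row.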

How the data were processed

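Per the study's methods, the authors removed low-quality bases from reads of 100 bp with Trimmomatic, mapped the reads on dm6 with STAR and counted them with featureCounts. The deposited values are whole-number counts for each gene and library, neither normalized nor pooled. The annotation, the strand setting, the handling of multi-mapping reads and the tool versions are not given in the sources used here. Of 16729 rows, 4 that held no counts of a gene were left out. Libraries of S2 cells, a fly cell line, were not used here. Positions, exon lengths and overlaps came from the Ensembl annotation of BDGP6, which has dm6 coordinates (12510 genes matched by symbol, 4005 by an older symbol, 210 not matched).

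A gene was tested if 2 or more of the 4 libraries had 10 or more counts. Tests were fitted across the whole table with edgeR 4.0.16 in R 4.3.3 (quasi-likelihood test, TMM scaling, Benjamini-Hochberg adjustment). The labels were compared without and with the replicate number as a block, and the numbers with the label in the fit. The pairing comes from the splitting of total RNA in the methods and the numbers in the titles, and Pearson's r of the paired deviations was 0.902. Whether paired libraries share an extraction was not tested. Standard errors are the log2 fold change over the square root of F. DESeq2 1.42.0, other scalings and count minimums, and leaving out each library were alternatives. On simulated counts, 200 of 9594 genes (labels) or 9600 genes (numbers) were changed by 2 on the log2 scale. There edgeR recovered 99.0% and 99.5% of the changed genes. It also called 10 (labels) and 13 (numbers) other genes with label or number alone in the fit, and 7 and 12 with both. Recovery of smaller changes, such as those of the members, was not tested. In the measured counts the label fit without the block called 0 of 9737 genes. There the fat body marker Yp3 stood at -3.55 and the photoreceptor marker ninaE at -3.48 on the log2 scale. The percentages above hold for the simulated counts only, and recovery in the measured counts was not tested. The methods describe biological replicates, but the labels do not say that the numbers are separate pools of brains. Part of the spread between these libraries may therefore be technical. Without the block, p-values between the labels measure the spread within each label. With label and number both in the fit, they measure only what these terms leave over. That excludes the spread between libraries of a label.

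The members and the gene lists were chosen with earlier results of these data known. The named genes were the members, up to 3 called genes per pathway list and comparison by absolute log2 fold change, and list genes under the count minimum. Other named genes were chosen after their values were seen, as were the 36 pairwise ratio ranges.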

Additional observations from a re-analysis of the deposited data

Results flagged for a closer look

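The CPM of CrebB differed between the library types in opposite directions, with a log2 ratio of rRNA-depleted to polyA-enriched of -0.142 for number 1 and 0.0535 for number 2. The CPM of dnc differed between the numbers in opposite directions, with a log2 ratio of number 2 to number 1 of 0.0281 for rRNA-depleted and -0.0700 for polyA-enriched. With a single library behind each value, neither difference was tested.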

How the results depend on the processing

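Between the labels 0 members were called, under DESeq2, other scalings, other count minimums or leaving out a library as well, whereas the replicate block called 6. The count of all genes called, 0 at first, was 551 with DESeq2, 255 without a count minimum, 153 with at least 10 counts in all 4 libraries, 2952 with the replicate block and 0 to 457 when a library was left out. Between the numbers, the 7 members called became 6 with DESeq2, its size factors in edgeR or library totals, 3 without a count minimum, 4 with at least 10 counts in all 4 libraries, 4 at an adjusted p under 0.01, 1 with a log2 fold change beyond 1 and 0 without the label in the fit. The 5473 genes called became 3467 with DESeq2, 1554 with the fold condition and 1305 without the label. Leaving out a library was possible only without the label, a choice made after seeing the data, and gave 0 to 5 genes and 0 to 0 members. Some of these runs had fewer libraries or terms, and the cause of the changes was not tested.

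Some directions turned. The label difference of CrebB was 0.028 with DESeq2 and with its size factors in edgeR, 0.0027 without a count minimum and -0.24 to 0.13 when a library was left out. Leaving out a library gave -0.052 to 0.86 for rut and -0.14 to 1.14 for CaMKII between the labels, and -0.16 to 0.052 for dnc and -0.16 to 0.21 (-0.0016 without rRNA-depleted 2) for Pka-C1 between the numbers, where Pka-C1 was also at -0.045 without a count minimum. The label differences in log2 ratio ran from -0.145 to 0.235 for Pka-R1 to Pka-C1, from -0.123 to 0.258 for Pka-R2 to Pka-C1 and from -0.760 to 0.147 for dnc to rut. With 2 libraries a label and amn at 4 to 9 counts, neither a small label difference nor a small change of amn could be resolved.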
